A study of Homo sapiens with 4 samples.

Results

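The interferon-induced transmembrane (IFITM) genes were read out in Caki-1 cells with and without knockdown of TFE3. The members were IFITM1, IFITM2, IFITM3 and IFITM10, the genes of this family that passed the filter on low counts, 4 of the 61533 gene identifiers in the deposited count table. They were matched by symbol to their Ensembl identifiers, ENSG00000185885, ENSG00000185201, ENSG00000142089 and ENSG00000244242. The family was chosen by its change after knockdown in these same libraries, so the knockdown values of its members are a description and carry no test here. IFITM5, the bone-expressed member of the family, had 0 and 2 counts in the shTFE3 libraries and 1 and 1 counts in the shControl libraries. Among 12 IFITM pseudogenes, 8 had no count in any library and the highest single value was 4 counts.

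IFITM1, IFITM2 and IFITM3 are small membrane proteins that interferon induces and that keep many enveloped viruses from fusing with cell membranes. IFITM1 sits largely at the cell surface, while IFITM2 and IFITM3 carry a longer amino terminus with an endocytic signal and sit on endosomes and lysosomes. IFITM10 is the most divergent human member, and its function is little known. TFE3, a relative of TFEB and MITF, activates genes of lysosomes and autophagy through the CLEAR element, a sequence built around CACGTG.

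Caki-1 is an established human renal cell carcinoma line. The shTFE3 group (genotype label TFE3-KD) received lentivirus with hairpin RNA against TFE3, and the shControl group (genotype label WT) received lentivirus with a control sequence, with 2 libraries in each. In both groups infected cells were split into dishes after 24 hours, puromycin at 1 µg/ml followed after 12 hours more, and selection lasted 3 days. The labels give neither the number of hairpins nor whether libraries came from separate infections, so p-values measure a spread between libraries that may be technical. In bulk RNA, fewer cells that express a gene and less RNA per cell cannot be told apart.

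TFE3 had 70.1 and 66.9 CPM (counts scaled to library size) in the shTFE3 libraries, against 131 and 128 CPM in the shControl libraries (log2 fold change -0.92, SE 0.062, edgeR adjusted p = 5.6e-11). The libraries held 17742519 and 17631154 counts in shTFE3 and 17316158 and 17270180 in shControl. Of 15950 genes tested with edgeR, 23.3% were called at an adjusted p under 0.05, with 10.3% higher and 12.9% lower in shTFE3. These were 1650 and 2059 genes. Scaling by library totals alone gave 2119 higher and 1680 lower. The CPM of the 2 groups did not overlap for 60.3% of all tested genes. Of the renal carcinoma markers, PAX8, KRT8, KRT18 and VIM were abundant, EPCAM had at most 21 counts, KRT19 at most 2, and PAX2 and CA9 had none.

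The members of the cluster near the end of the short arm of chromosome 11 are close copies of each other, which bears on every count below. In GENCODE release 29 on GRCh38, IFITM2 spans chr11:307631-315272 and IFITM1 spans chr11:313506-315272, both on the plus strand, and IFITM3 spans chr11:319669-327537 on the minus strand. IFITM10 lies apart, at chr11:1732410-1750591 on the minus strand. Over their aligned coding bases IFITM2 and IFITM3 were 93.9% identical, IFITM1 and IFITM3 87.5%, and IFITM1 and IFITM2 85.4%. IFITM10 was 68.4% to 69.7% identical to the other members, and its coding sequence was 684 bases long, against 375 for IFITM1, 396 for IFITM2 and 399 for IFITM3.

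The start of the coding sequence is shown as a stretch in which IFITM2 and IFITM3 differ at several bases. Capitals mark bases that differ between the genes, 8 substitutions and 3 bases that IFITM3 alone has. The stretches lie at chr11:308193-308279 on the plus strand for IFITM2 and at chr11:320724-320813 on the minus strand for IFITM3 (GRCh38).
IFITM2: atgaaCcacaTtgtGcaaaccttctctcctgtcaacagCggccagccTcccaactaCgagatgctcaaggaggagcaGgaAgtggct
IFITM3: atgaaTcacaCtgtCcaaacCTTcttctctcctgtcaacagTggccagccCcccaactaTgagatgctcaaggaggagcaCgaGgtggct

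Further along, the genes share exact runs. Within the coding sequences of the transcripts used, the longest run common to IFITM2 and IFITM3 had 99 bases. It covered coding bases 235 to 333 of IFITM2 and 238 to 336 of IFITM3, across a splice junction. Longer runs occur with other IFITM2 transcripts, in which 2.96% of the 100-base windows of the IFITM3 transcript were found. The 99-base run is printed in full because a read inside it has no base that separates the genes.
Shared by IFITM2 and IFITM3: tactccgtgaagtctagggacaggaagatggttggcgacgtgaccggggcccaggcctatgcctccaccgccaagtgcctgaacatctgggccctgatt

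The reads were pairs of 150 bases, longer than the printed run. No 150-base window of the IFITM2 or IFITM3 transcript was found in a transcript of another gene. At 100 bases the share was 0% for IFITM2 and 5.92% for IFITM3, and at 31 bases it was 23.4% and 43.3%. IFITM1 stood apart: 30.3% of the 150-base windows of its transcript were also in a transcript of IFITM2. That was not the transcript used for IFITM2, so the 0% of IFITM2 leaves out this overlap. The annotation lets a transcript of IFITM2 run into the last exon of IFITM1, so that 351 exon bases, 32.5% of those of IFITM1 and 22.8% of those of IFITM2, belong to both genes on the same strand. How the authors' counting treated reads that fit both genes is not given in the sources used here, so the division of counts between IFITM1 and IFITM2 is uncertain.

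**Figure D1:**
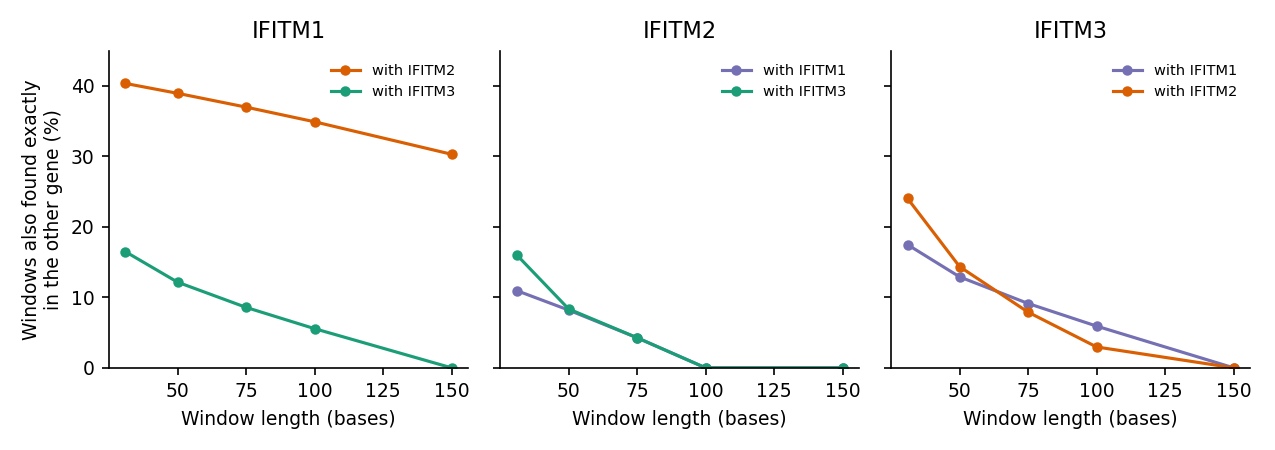
Percent of windows of one transcript of IFITM1, IFITM2 and IFITM3 that occur exactly in a transcript of each of the other 2 genes (y axis), against window length from 31 to 150 bases (x axis). At 150 bases, the read length, the only pair left is IFITM1 with IFITM2, at 30.3%.

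For the other members, overlap was of a different kind. IFITM3 shared 287 exon bases, 21.3% of its total, with the antisense gene ENSG00000255328, which had at most 3 counts in a library. IFITM10 shared 1062 exon bases, 22.2%, with ENSG00000250644, a readthrough gene that joins IFITM10 to its neighbour CTSD. Of the 150-base windows of its transcript, 25.7% were in that readthrough gene.

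IFITM3 carried nearly all of the family's RNA. It is the member best known for holding back influenza viruses from endosomes. IFITM3 had 2257 and 2309 counts in the shTFE3 libraries, against 3063 and 3290 counts in the shControl libraries. That corresponds to 125.6 and 129.8 CPM in shTFE3, against 179.6 and 193.1 CPM in shControl. Both shTFE3 libraries were below both shControl libraries, and the gap between the groups was several times the gap within either. The mean was 128 ± 2.96 CPM in shTFE3 and 186 ± 9.58 CPM in shControl (SD, n = 2 each), which left 68.5% of the shControl level. The log2 fold change was -0.55 (SE 0.059).

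IFITM2 is the close copy of IFITM3 that resides mainly on late endosomes and lysosomes. It had 1.503 and 1.405 CPM in shTFE3 (27 and 25 counts), against 4.34 and 5.05 CPM in shControl (74 and 86 counts). Both shTFE3 libraries were well under both shControl libraries. IFITM2 thus stood at 1.45 ± 0.069 CPM in shTFE3 and 4.69 ± 0.50 CPM in shControl (SD, n = 2 each), 30.98% of the shControl level, with a log2 fold change of -1.69 (SE 0.22). Among the 4 members this was the largest change in size, on low counts. The authors' deposited table, made from these same libraries, gave IFITM2 a log2 fold change of -1.69 with a standard error of 0.370. Its adjusted p there was 9.56e-05, which is no independent test, since the same contrast chose the family.

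IFITM1, the member that acts mostly at the cell surface, was also low. It had 1.34 and 1.29 CPM in shTFE3 (24 and 23 counts), against 2.46 and 1.70 CPM in shControl (42 and 29 counts). The shTFE3 libraries lay under both shControl libraries, but the shControl libraries differed more from each other than the lower one did from shTFE3. The mean was 1.31 ± 0.030 CPM in shTFE3 and 2.08 ± 0.54 CPM in shControl (SD, n = 2 each). The log2 fold change was -0.66 (SE 0.28), and without shControl replicate 1 it was -0.37.

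IFITM10 moved the other way. It had 8.63 and 7.93 CPM in shTFE3 (155 and 141 counts), against 4.40 and 4.05 CPM in shControl (75 and 69 counts). Both shTFE3 libraries were above both shControl libraries, with little spread inside either group. The mean was 8.28 ± 0.50 CPM in shTFE3 and 4.22 ± 0.25 CPM in shControl (SD, n = 2 each), a 1.96-fold difference and a log2 fold change of 0.97 (SE 0.16). In the authors' deposited table IFITM10 had a log2 fold change of 0.97 with a standard error of 0.252 and an adjusted p of 0.00151. These values too come from the same libraries and contrast and are no independent test.

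**Figure D2:**
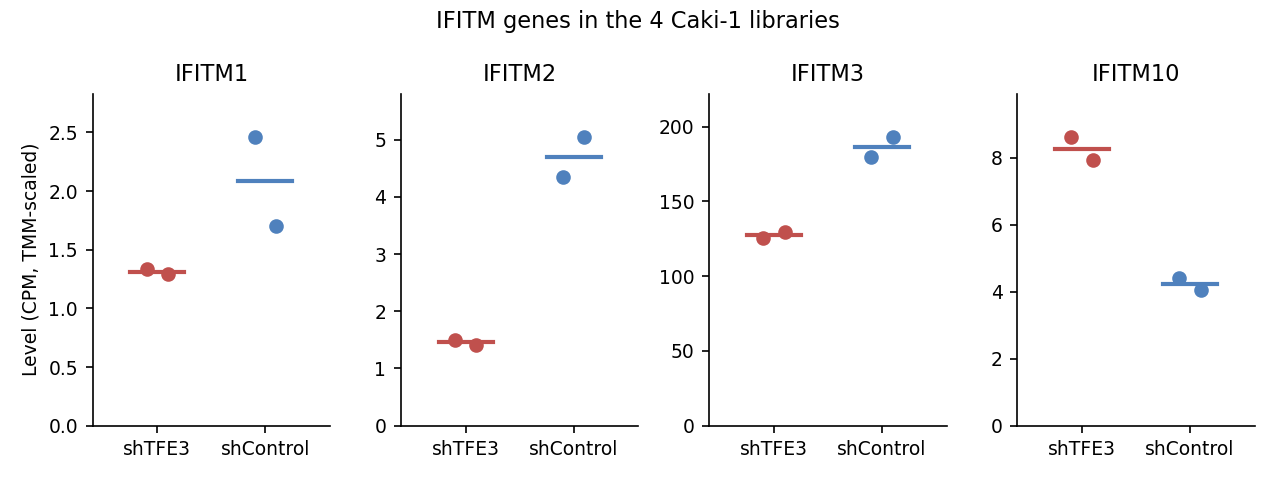
CPM scaled with TMM factors (y axis, from 0, on its own scale in each panel) of the 4 IFITM genes in the 2 shTFE3 and 2 shControl libraries (x axis). Points are libraries and bars are group means; IFITM1, IFITM2 and IFITM3 are lower in both shTFE3 libraries and IFITM10 is higher.

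Of the 4 members, edgeR called 2 lower and 1 higher, IFITM1 did not pass, and the groups did not overlap for any of the 4. These counts stand beside 23.3% called and 60.3% without overlap over all tested genes, and nothing is read from them, since the knockdown contrast chose the family. The authors' deposited table held 546 genes, 152 higher and 394 lower, and listed 2 of the 4 members. The smallest absolute log2 fold change in that table was 0.585. The members listed there were IFITM2 and IFITM10, while IFITM3 stood at -0.55 in edgeR.

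Because the split of reads among close copies is uncertain, the counts of IFITM1, IFITM2 and IFITM3 were also added into 1 feature. The sum cannot recover reads that the counting may have dropped because they fit more than 1 gene. The sum had a log2 fold change of -0.57, and between -0.62 and -0.52 under the alternative settings. IFITM3 made up 97.8% and 98.0% of those counts in shTFE3, against 96.4% and 96.6% in shControl. The share of IFITM2 was 1.17% (exact binomial 95% interval 0.772 to 1.70) and 1.06% (0.688 to 1.56) in shTFE3, against 2.33% (1.83 to 2.91) and 2.53% (2.03 to 3.11) in shControl. These intervals cover counting error only and test nothing between the groups, since the knockdown contrast chose the family. IFITM1 made up 1.04% and 0.976% in shTFE3, against 1.32% and 0.852% in shControl, with the groups overlapping.

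Levels of different members can be compared only per length, here as TPM (counts per GENCODE exon base, scaled to the same total in each library). IFITM3 had 393 ± 6.44 TPM in shTFE3 and 549 ± 30.8 TPM in shControl (SD, n = 2 each). Averaged over all libraries its level was above that of 98.5% of the tested genes. The other members were in the lower part of the tested genes, with 33.4% of tested genes below IFITM2, 29.4% below IFITM1 and 26.4% below IFITM10.

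The order of the low members differed between the groups. In both shTFE3 libraries IFITM10 came second, at 7.51 and 6.83 TPM, then IFITM1 at 5.15 and 4.94 TPM and IFITM2 at 4.06 and 3.76 TPM. In both shControl libraries IFITM2 came second, at 11.1 and 13.0 TPM, then IFITM1 at 9.03 and 6.28 TPM and IFITM10 at 3.64 and 3.37 TPM. Several neighbours in these orders were not separated beyond counting error. The exact Poisson intervals of IFITM10 and IFITM1 overlapped in both shTFE3 libraries, at 6.37 to 8.79 TPM for IFITM10 and 3.30 to 7.66 TPM for IFITM1 in replicate 1. They also overlapped in shControl replicate 2, at 2.63 to 4.27 TPM for IFITM10 and 4.21 to 9.02 TPM for IFITM1. Those of IFITM1 and IFITM2 overlapped in both shTFE3 libraries and in shControl replicate 1, where they were 6.51 to 12.2 TPM for IFITM1 and 8.74 to 14.0 TPM for IFITM2. The intervals of IFITM10 and IFITM2 did not overlap in any of the 4 libraries at these lengths. The lengths were all annotated exon bases of a gene, 1543 for IFITM2, 1080 for IFITM1 and 4784 for IFITM10. The single transcripts used for the sequences had 659, 855 and 3706 bases, which shortens IFITM2 most. The order of the members and the gaps between them therefore depend on the length used, and other lengths were not tried.

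Ratios inside a library restate the TPM values above and depend on the same exon lengths. IFITM10 stood at 1.85 and 1.82 times the per-length level of IFITM2 in shTFE3, against 0.327 and 0.259 times in shControl. IFITM3 was 95.7 and 106 times as high as IFITM2 per length in shTFE3, against 47.4 and 43.8 times in shControl.

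**Figure D3:**
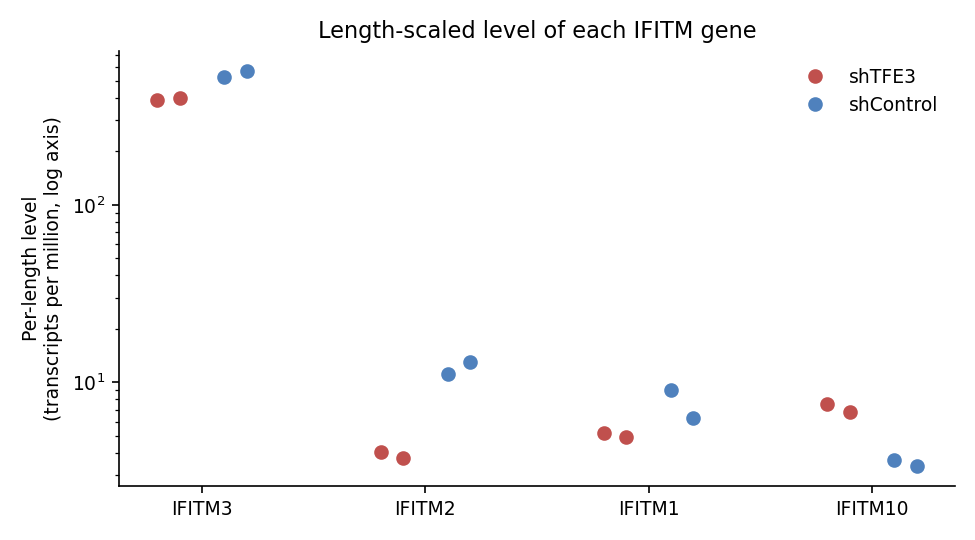
TPM of each IFITM gene (y axis, log scale) in the 2 shTFE3 and 2 shControl libraries, 1 point a library. IFITM3 lies far above the rest in every library, and at the exon lengths used IFITM10 is second in shTFE3 and last in shControl.

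The promoters of IFITM1 and IFITM3 are shown because they carry the sequence that interferon-activated factors bind. They come from RefSeq (GRCh38.p14), from 90 bases before to 10 bases after the annotated start, at chr11:313950-314049 on the plus strand for IFITM1 and chr11:320851-320950 on the minus strand for IFITM3. The promoter table held 2 of the 4 members, IFITM1 and IFITM3. Capitals mark the core of the interferon response element, searched as GAAA, any 2 bases and GAAA on both strands.
IFITM1: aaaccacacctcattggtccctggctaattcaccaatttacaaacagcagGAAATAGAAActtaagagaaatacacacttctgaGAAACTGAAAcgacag
IFITM3: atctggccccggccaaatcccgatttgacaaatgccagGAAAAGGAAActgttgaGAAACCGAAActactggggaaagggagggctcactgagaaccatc

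The core occurred 2 times in each, at positions -40 and -6 from the start in IFITM1 and at -52 and -35 in IFITM3. Of 35116 RefSeq promoter windows, each searched over its whole length,, 3.57% held at least 1 such core and 0.259% held 2 or more. CACGTG, present in 7.26% of all windows, was in neither promoter. The STAT element, searched as TTC, any 3 bases and GAA on both strands, was in 7.66% of windows and occurred once in IFITM1, at -12, where it overlaps the second interferon core.

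Other interferon-inducible genes were examined beside the members. Of 40 such genes, with the IFITM genes left out, 37 were tested, 15 rose and 2 fell in shTFE3, with a median log2 fold change of 0.19, against 0.0015 over all genes tested. Over all genes tested, 10.3% were called higher and 12.9% lower. The number that rose was 9 when DESeq2 was used, 9 with shControl replicate 1 left out, and 1 with no filter on low counts. It was 7 with shTFE3 replicate 1 left out and 5 with shTFE3 replicate 2 left out. IFITM2 and IFITM3 were thus lower while more of the listed genes rose than fell.

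OASL, an antiviral relative of the oligoadenylate synthetases, had 27.4 and 23.2 CPM in shTFE3, against 10.8 and 11.5 CPM in shControl (log2 fold change 1.18, edgeR adjusted p = 1.0e-08). OAS2, which makes the activator of RNase L, rose by 0.68 on the log2 scale (adjusted p = 0.000237). HERC5, the ligase that attaches ISG15, rose by 0.37 (adjusted p = 0.000262). The 2 genes that fell were IFI16, a DNA sensor, at a log2 fold change of -0.25, and PARP9, an ADP-ribosyltransferase partner, at -0.21. They were named after their values were seen. IFI16 lost its call with shTFE3 replicate 1 or 2 left out, and PARP9 with any 1 library left out, under DESeq2, under library totals and with the replicate block. With no filter on low counts IFI16, PARP9, OAS2 and HERC5 all lost their calls.

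The interferons themselves were barely seen. Of 13 interferon genes, 8 had no count in any library, and IFNE alone passed the filter, with a log2 fold change of -0.11 that did not pass. Of 20 receptor and signalling genes, 5 rose and 3 fell, with a median log2 fold change of -0.018, beside 10.3% called higher and 12.9% lower over all genes. JAK2, a kinase of interferon gamma and cytokine receptors, had 57.9 and 48.5 CPM in shTFE3, against 27.1 and 30.1 CPM in shControl (log2 fold change 0.89, edgeR adjusted p = 3.1e-08). IFNGR1, the ligand-binding chain of the interferon gamma receptor, rose by 0.35 (adjusted p = 0.000885). STAT2, a subunit of the factor that binds the interferon response element, had a log2 fold change of -0.30 (adjusted p = 0.000433). Without shTFE3 replicate 1, 2 of these genes rose and 1 fell, and without shTFE3 replicate 2, 1 rose and 1 fell. IFNGR1 did not pass in either case. With no filter on low counts JAK2, IFNGR1 and STAT2 all lost their calls.

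**Figure D4:**
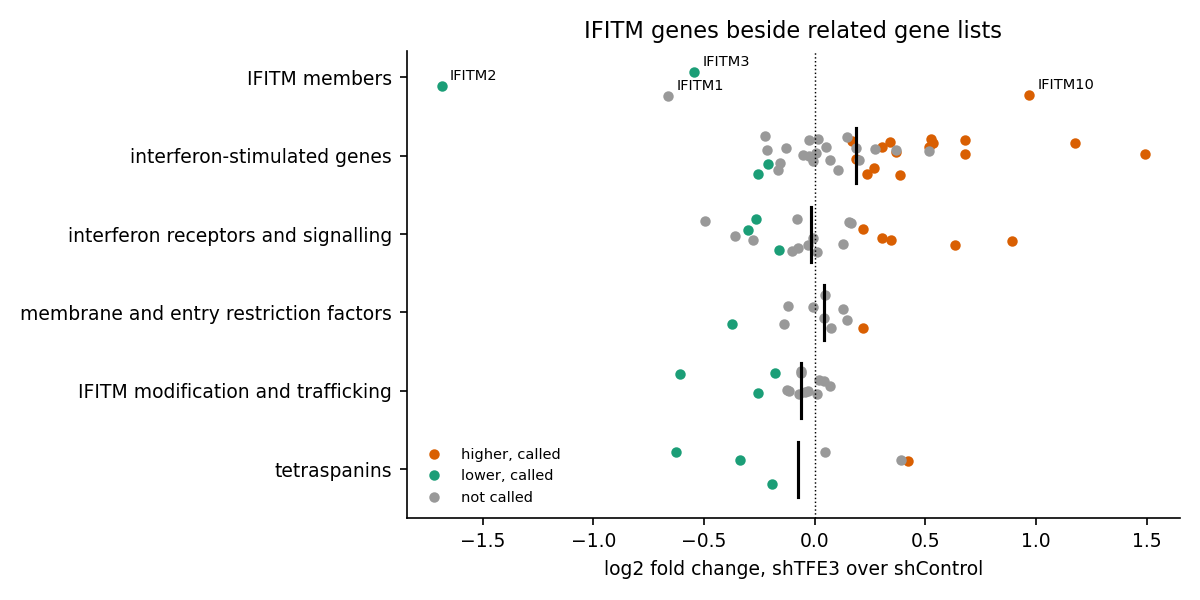
Log2 fold changes, shTFE3 over shControl (x axis), of tested genes in 6 lists, with the vertical bar at the median of each list and none drawn for the members. Points are genes, coloured by whether edgeR called them higher, lower or neither; IFITM2 lies left of every gene of the other lists, and 15 interferon-stimulated genes lie right of 0 as called.

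Of 14 tested genes whose products modify or move IFITM proteins, none rose and 3 fell, and their median was -0.062 on the log2 scale. The 3 of 14 called is close to the 23.3% called over all tested genes, of which 12.9% were lower. FYN, a kinase that phosphorylates the endocytic signal of IFITM3, had a log2 fold change of -0.61 (edgeR adjusted p = 0.00317). NEDD4, the ubiquitin ligase that marks IFITM3 for turnover, stood at -0.26 (adjusted p = 0.00623), and ZDHHC20, an enzyme that palmitoylates IFITM3, at -0.18 (adjusted p = 0.0446). FYN and NEDD4 lost their calls with shTFE3 replicate 1 or 2 left out, FYN also under DESeq2 and NEDD4 also without shControl replicate 2. ZDHHC20 lost its call without any 1 of the 4 libraries, under DESeq2, under scaling by library totals and with the replicate block. All 3 lost it with no filter on low counts.

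Among 10 tested restriction factors that act at membranes or on viral entry, 1 rose and 1 fell, close to the 23.3% called over all genes. CD74, the invariant chain that also blocks entry of some viruses through endosomes, had 90.4 and 89.9 CPM in shTFE3, against 119.8 and 113.8 CPM in shControl (log2 fold change -0.37, edgeR adjusted p = 5.68e-05). MARCHF8, a ubiquitin ligase that removes viral glycoproteins, stood at 0.22 (adjusted p = 0.0378). Its call was lost under DESeq2, with the replicate block, with no filter on low counts and without any 1 of the 4 libraries. Of 6 tested tetraspanins, membrane organisers that share endosomes and the cell surface with IFITM proteins, 3 fell and 1 rose, beside 12.9% lower and 10.3% higher over all genes. CD63, which marks late endosomes and lysosomes, had a log2 fold change of -0.34, CD9 of -0.63 and CD82 of 0.42. CD9 lost its call without shTFE3 replicate 2. With no filter on low counts CD9, CD82 and CD74 all lost their calls. CD81, a tetraspanin reported to bind IFITM1, stood at 0.045 and did not pass. The other dispanins, relatives of the IFITM family, had 3 tested genes, none called.

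Markers of other cell types were read as summed levels. The summed level of 6 leukocyte markers was 1.56 and 1.80 CPM in shTFE3, against 1.88 and 0.939 CPM in shControl. PTPRC had at most 1 count in a library, and CD3E had none. CD14 had 10 and 11 counts in shTFE3, against 2 and 2 in shControl, and its part in the IFITM values was not tested. The 4 endothelial markers summed to 4.06 and 3.37 CPM in shTFE3, against 2.81 and 3.23 CPM in shControl, and the 6 fibroblast markers to 19.2 and 19.1 CPM in shTFE3, against 19.9 and 19.7 CPM in shControl. PECAM1 made up most of the endothelial sum, at 3.78 and 3.26 CPM in shTFE3, against 2.81 and 3.17 CPM in shControl, and CDH5 had no count. COL1A1 and PDGFRB carried the fibroblast sum, while COL1A2, COL3A1, DCN and LUM had at most 1 count in a library. The endothelial and fibroblast sums were above the CPM of IFITM1, a comparison not scaled for length.

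Genes near the members were also counted. Of 31 listed genes that overlap a member or start within 100 kb of one, 11 were tested, 1 rose and 3 fell, beside 10.3% higher and 12.9% lower over all genes. Within 100 kb of the IFITM1 to IFITM3 cluster, PSMD13, a proteasome subunit gene, stood at a log2 fold change of 0.21 (edgeR adjusted p = 0.0162). SIGIRR, a receptor that dampens interleukin-1 and Toll-like receptor signalling, stood at -0.32 (adjusted p = 0.0412). The call of SIGIRR was lost without any 1 of the 4 libraries, and that of PSMD13 without shControl replicate 2 or either shTFE3 replicate. SIGIRR also lost its call under DESeq2 and under library totals, and both genes lost theirs with no filter on low counts. SIRT3, PGGHG, B4GALNT4, PKP3 and the unnamed genes ENSG00000277290 and ENSG00000251661 had log2 fold changes between -0.31 and 0.17 and did not pass.

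CTSD, next to IFITM10 and starting 14.0 kb from it, encodes cathepsin D, a lysosomal protease. It had 388.8 and 365.2 CPM in shTFE3, against 538.9 and 529.2 CPM in shControl (log2 fold change -0.50, SE 0.054, edgeR adjusted p = 1.52e-07). IFITM10 and CTSD, on the same strand, therefore differed in opposite directions. The readthrough gene ENSG00000250644 that joins them had 58 and 46 counts in shTFE3, against 45 and 50 in shControl, overlapping and not called (log2 fold change 0.061). Adding its counts to IFITM10 left a log2 fold change of 0.67 for IFITM10. PRADX, a non-coding gene that lies on the other strand within the span of CTSD, stood at -0.95 (adjusted p = 0.0157). The strand setting of the counting is not given in the sources used here, so reads of PRADX and CTSD cannot be told apart. The call of PRADX was lost without any 1 library, under DESeq2 and with no filter on low counts.

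The CTSD promoter is printed because it holds the CACGTG (capitals) that the searched promoters of IFITM1 and IFITM3 lack. The motif lies at -47 from the start (RefSeq, GRCh38.p14, chr11:1763918-1764017, minus strand). The promoters of IFITM2 and IFITM10 were not searched, and any link of the motif to the knockdown values was not tested.
CTSD: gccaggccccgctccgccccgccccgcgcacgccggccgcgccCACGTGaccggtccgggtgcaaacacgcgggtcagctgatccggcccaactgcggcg

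**Figure D5:**
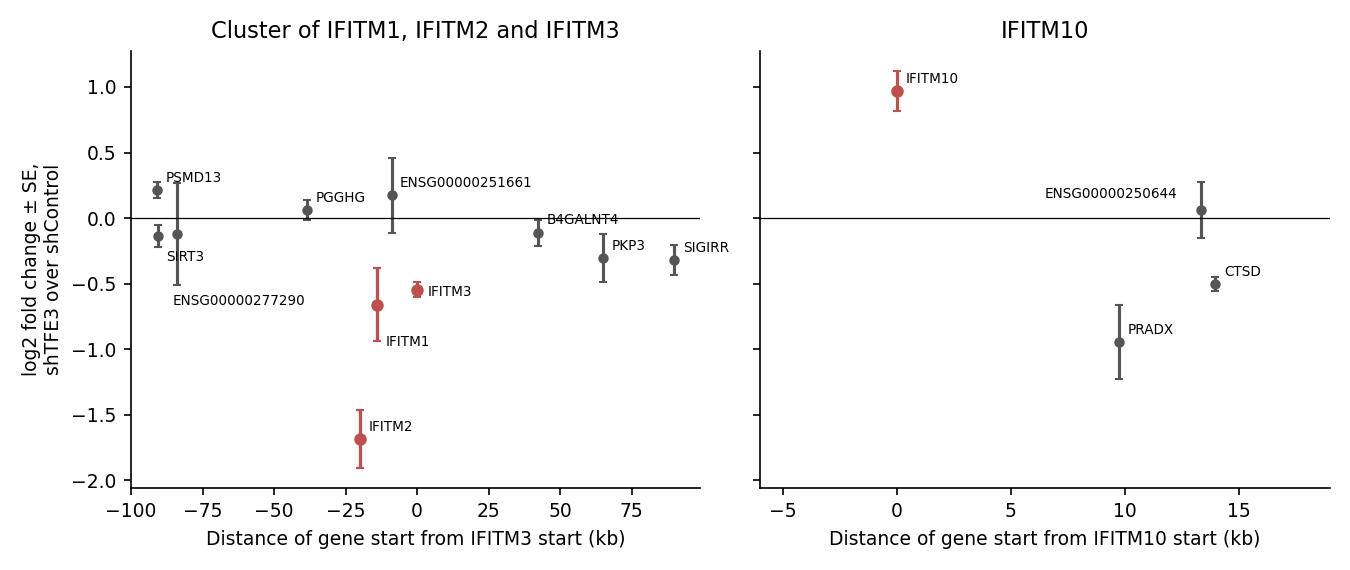
Log2 fold change, shTFE3 over shControl, with its SE (y axis) of the members and the tested genes within 100 kb, against the distance of each gene start from the start of IFITM3 (left) or IFITM10 (right) in kb (x axis). IFITM2 at -1.69 lies farthest from 0 in the left panel. In the right panel IFITM10 at 0.97 (SE 0.16) and PRADX at -0.95 (SE 0.28) lie about equally far from 0.

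The genes with the most similar pattern were sought among those with a mean of at least 100 counts, by the Euclidean distance between centred log2 CPM over the 4 libraries. For IFITM2 the nearest of 10914 genes were ITGB4, an integrin subunit, at a distance of 0.198, ENO2, a glycolytic enolase, at 0.205, and KCNH1, a potassium channel, at 0.253. LINC02532 followed at 0.260 and NIPAL4 at 0.269. ITGB4 had 22.2 and 22.2 CPM in shTFE3, against 61.0 and 62.6 CPM in shControl. For IFITM3 the nearest of 10913 genes were RRAGD, a Rag GTPase of lysosomal nutrient sensing, at 0.0303, PLAGL1, a zinc finger factor, at 0.0320, and PAG1, a membrane adaptor, at 0.0370. STK32B followed at 0.0441 and RBM3 at 0.0465. RRAGD had 29.2 and 30.2 CPM in shTFE3, against 41.3 and 45.7 CPM in shControl. These distances rest on 4 libraries that share their depth and scaling, and they describe likeness across those libraries alone. With 2 groups they largely restate the knockdown change that chose the family. RRAGD, like IFITM3, had a log2 fold change of -0.55. Joint regulation was not tested.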

How the data were processed

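Polyadenylated RNA of 4 Caki-1 libraries, 2 shTFE3 and 2 shControl by their titles, was sequenced as paired reads. Per the submitters' processing notes, the tools were DESeq2, featureCounts, STAR and Trim Galore, on hg38. Strand setting, annotation release and handling of reads that fit more than 1 gene were not given in the sources used here. The authors deposited whole-number counts per Ensembl gene. Their second deposited table gives, for selected genes, the mean normalized signal, the log2 fold change and its standard error, the test score and the p-values. Values from it are named as the authors' own.

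A gene name table gave symbols to 61415 identifiers, GENCODE release 29 to 105, and 13 stayed without. GENCODE 29 is not the annotation behind the counts, since its identifier versions differ. The deposited counts were tested in edgeR 4.0.16 (R 4.3.3) with filterByExpr, TMM factors, a design of group alone, the quasi-likelihood test, and Benjamini-Hochberg adjusted p at a threshold of 0.05. The fit had 2 residual and 22.4 prior degrees of freedom, and was tested on simulated data. Centred log2 CPM used a prior count of 2. The chi-square of replicate counts over its degrees of freedom was 3.30 in shTFE3 and 2.00 in shControl, so no libraries were merged. A count of 3 corresponded to 0.169 to 0.174 CPM, and intervals cover counting error only. Sequences were read with Python 3.11.15 and Biopython 1.88, using 1 transcript a member. Members and lists were chosen with earlier results of these data known. Named genes were the members, TFE3, tested genes within 100 kb, up to 3 called genes a list with the smallest p, and the 5 genes most like IFITM2 and most like IFITM3. List members named without a call were picked with values in view. The alternatives tried were other scalings and filters, DESeq2 1.42.0, limma-voom (limma 3.58.1), a replicate block, each library left out, and readthrough counts added to IFITM10. The chromatin immunoprecipitation was not analysed here.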

Additional observations from a re-analysis of the deposited data

How the results depend on the processing

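The members and the sum of IFITM1, IFITM2 and IFITM3 kept their direction under every alternative that gave a value, a description only, since the same contrast chose the family. IFITM1 gave none with at least 50 counts in 2 libraries, a filter that removes it. IFITM2 ranged from -1.79 to -1.57, IFITM3 from -0.60 to -0.49, IFITM1 from -0.90 to -0.37 and IFITM10 from 0.67 to 1.03 on the log2 scale. IFITM10 stood at 0.96 and was not called when low counts were not filtered. Called genes numbered 3709, and 384 with no filter, 2168 by DESeq2, and 1043 to 2514 with 1 library left out (1520 without shTFE3 replicate 1). Called interferon-inducible genes numbered 17, and 1 with no filter, 10 by DESeq2, and 5 to 13 with 1 library left out (7 without shTFE3 replicate 1, 10 without shControl replicate 1). The readthrough gene ENSG00000250644 lay between -0.11 and 0.21 with 1 library left out, and was below 0 without shControl replicate 1 (-0.015) and without shTFE3 replicate 1 (-0.11). Replicate numbers did not pair the libraries (r = -0.0957 over 10914 genes). With the replicate block 3558 genes were called, and IFITM2 stood at -1.68, IFITM3 at -0.54, IFITM10 at 0.97 and IFITM1 at -0.66. Of 34 other named genes called, 23 were lost with no filter, 6 under DESeq2 and 15 without shTFE3 replicate 2. IFITM1 and IFITM2, at 23 to 86 counts in a library, are limited by depth. The cause of these shifts was not tested.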
